A study of Sus scrofa with 6 samples.

Results

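The genes described here encode the core of the phosphoinositide 3-kinase (PI3K), AKT, mTOR and FOXO pathway. Members were taken as the genes whose symbol in the expression table was one of 9 listed names, and 8 of the 24358 genes in the table matched: *PIK3CA*, *PIK3R1*, *PDPK1*, *AKT2*, *MTOR*, *RHEB*, *FOXO1* and *FOXO3*. *AKT1*, the remaining listed name, was not analysed here. The study asked which transcripts differ in pig embryos after knockdown (KD) of *CARM1*, an arginine methyltransferase that dimethylates histone H3. RNA of single embryos was sequenced on the fifth day of culture in 6 libraries, 1 embryo each. The 3 *CARM1* KD embryos grew from metaphase II oocytes whose cytoplasm was injected with siRNA against *CARM1*, and the 3 control embryos were not injected. No embryo injected with a negative control siRNA was among these libraries, so injection itself and loss of *CARM1* cannot be told apart. The labels call all 6 a porcine blastocyst. Strain, donors and whether these embryos were parthenogenetic or fertilized are not given in the sources used here. Y-linked genes had reads in every library, summing to 178, 215 and 23.8 FPKM in *CARM1* KD embryos 1 to 3 and to 28.1, 9.97 and 13.8 FPKM in control embryos 1 to 3.

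In this pathway, growth factor receptors recruit PI3K, a dimer of a regulatory and a catalytic subunit, which phosphorylates a membrane lipid. PDPK1 and mTOR complex 2 then activate AKT, AKT inhibits the TSC complex, and the small GTPase RHEB is freed to activate mTOR complex 1, which raises protein synthesis and restrains autophagy. AKT also phosphorylates FOXO transcription factors, which keeps them out of the nucleus. In the mouse, PI3K and FOXO3 are known for holding or releasing primordial follicles, and mTOR activity is needed for proliferation of blastocyst cells.

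The libraries held 26341924 to 41727594 estimated counts in genes, and the 8 genes had 52 to 13789 counts per embryo. Levels are given as FPKM, fragments per kilobase of gene scaled to the mapped total of the library. *CARM1* had 0.130, 0.150 and 0.274 FPKM in *CARM1* KD embryos 1 to 3, against 1.96, 4.54 and 1.26 FPKM in control embryos 1 to 3. The groups did not overlap (log2 fold change −3.98 ± 1.02, standard error, edgeR unadjusted p = 0.00516, adjusted p = 0.9999), and DESeq2 called *CARM1* at an adjusted p of 0.00474. *CARM1* met the filter on low values, at least 1 FPKM in 2 embryos, only through the controls, the group where it is high. Its call alone is therefore not support for a difference. Markers of the labelled blastocyst were mixed. Of the trophectoderm factors, *TFAP2C* had 41.2, 27.9 and 35.1 FPKM in KD embryos and 50.1, 0.586 and 49.7 FPKM in controls. *TEAD4* had 3.38 to 14.5 FPKM over all 6. In every embryo *CDX2* was at or under 0.445, *GATA2* at or under 1.94 and *GATA3* at or under 1.53 FPKM. Of the inner cell mass genes, *NANOG* had 0 to 19.4, *SOX2* 0.356 to 4.39 and *KLF4* 6.05 to 62.5 FPKM. *ESRRB* had 0.087 to 50.6, *DPPA5* 26.4 to 577 and *TDGF1* 0 to 8.1 FPKM. Of the primitive endoderm genes, *GATA6* had 12.7, 50.5 and 22.8 FPKM in KD embryos and 17.7, 0 and 20.5 FPKM in controls. *GATA4* ran differently, with 1.17, 2.92 and 9.905 FPKM in KD embryos and 1.65, 9.13 and 0.780 FPKM in controls, highest in *CARM1* KD 3 and control 2. *PDGFRA* had 0 to 1.725 FPKM, and *SOX17* was at 0 in all 6. *CARM1* KD 3 and control 2 stood apart from the other 4 embryos. The summed level of 13 matched oocyte transcripts was 278, 28.1 and 2028 FPKM in the KD embryos and 710, 4073 and 178 FPKM in the control embryos. Across 8 matched trophectoderm and epithelial genes the sum was 240, 355 and 49.6 FPKM in KD embryos and 106, 6.63 and 149 FPKM in controls. In *CARM1* KD 3 *KRT8* and *KRT18* were both at 0, and in control 2 they had 0.048 and 0 FPKM. Mitochondrially encoded genes took 14.5 to 23.9% of the counts in KD embryos, and 16.8, 46.0 and 18.3% in control embryos 1 to 3. Results are therefore also given without *CARM1* KD 3 and control 2. RNA of whole embryos was measured, so fewer cells of a type and less RNA per cell cannot be told apart.

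None of the 8 genes passed an adjusted p under 0.05 in edgeR, where 0 of 10639 genes tested did (0.0%). At an unadjusted p under 0.05 the count was also 0 of 8, against 73 of 10639 (0.686%), of which 36 were higher (0.338%) and 37 lower (0.348%) in *CARM1* KD embryos. DESeq2 called 0 of the 8 and 12 of all genes (0.113%). In 7 of 8 the fitted value was higher in *CARM1* KD embryos, and the median log2 fold change was 0.23, beside 0.10 and 55.3% higher over all genes tested. The largest fitted differences were those of *MTOR* (1.38), *FOXO1* (1.31), *PIK3R1* (−0.93) and *PIK3CA* (0.88). Each of these fell short of the test, and no gene of the 8 separated the groups, against 4.89% of all genes. *MTOR*, counted among the 7 fitted higher, met the filter on low values only through *CARM1* KD 2 and 3, in the group where it is high. Its fitted value is therefore not support for a difference. With 3 embryos in each group, an exact permutation test of 1 gene cannot go below p = 0.1.

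*PIK3CA* encodes the p110-alpha catalytic subunit of PI3K (ENSSSCG00000030413, chromosome 13, 117179941 to 117278498, plus strand, in the pig gene coordinates of the deposited table). It had 4.10, 0.838 and 2.62 FPKM in *CARM1* KD embryos 1 to 3, against 1.65, 1.44 and 0.687 FPKM in control embryos 1 to 3. *CARM1* KD 1 and KD 3 were the highest embryos, while KD 2 lay below controls 1 and 2. The means were 2.52 ± 1.64 FPKM in KD and 1.26 ± 0.506 FPKM in control embryos (SD, n = 3 each). The log2 fold change was 0.88 ± 0.84 (edgeR, unadjusted p = 0.328, adjusted p = 0.9999), and 0.21 without *CARM1* KD 1.

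*PIK3R1* encodes the main regulatory subunit, p85-alpha, which binds phosphorylated receptors and holds the catalytic subunit (ENSSSCG00000016958, chromosome 16, 46434814 to 46523623, plus strand). Levels were 7.10, 3.65 and 9.41 FPKM in *CARM1* KD embryos, and 8.71, 19.6 and 5.04 FPKM in control embryos. Control 2 alone exceeded every KD embryo. It was the only gene of the 8 with a lower mean in KD embryos (6.72 ± 2.90 FPKM) than in control embryos (11.1 ± 7.59 FPKM). The log2 fold change was −0.93 ± 0.73 (edgeR, unadjusted p = 0.244, adjusted p = 0.9999), and −0.17 without control 2. Within each embryo, *PIK3R1* FPKM divided by *PIK3CA* FPKM was 1.73, 4.35 and 3.59 in the KD embryos, against 5.27, 13.7 and 7.34 in the controls. Every KD embryo thus had a lower ratio than every control. This ratio was singled out after its values were seen and was not tested. Summing over annotated transcripts changes both levels, to 1.17 to 1.20 times the gene-level FPKM for *PIK3R1* and 1.4 to 2.3 times for *PIK3CA*. The ratio given here is that of the gene-level values.

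*PDPK1* encodes the kinase that phosphorylates the activation loop of AKT (ENSSSCG00000037719, chromosome 3, 39429924 to 39512608, minus strand). It had 2.47, 4.35 and 11.2 FPKM in KD embryos, against 3.74, 8.05 and 1.64 FPKM in control embryos. *CARM1* KD 3 and control 2 were the highest embryos. The means of 6.00 ± 4.60 FPKM in KD and 4.48 ± 3.27 FPKM in control embryos gave a log2 fold change of 0.17 ± 0.83 (edgeR, unadjusted p = 0.846, adjusted p = 0.9999). Its direction changed with the scaling, being −0.05 with DESeq2 and −0.12 with upper-quartile scaling. Without *CARM1* KD 3 it was −0.49, and without control 2 it was 0.96.

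*AKT2*, one of the AKT kinases and best known for insulin-stimulated glucose uptake (ENSSSCG00000002989, chromosome 6, 48555842 to 48606167, minus strand), was low. It had 0.485, 2.61 and 3.97 FPKM in KD embryos, against 0.898, 3.08 and 0.928 FPKM in control embryos. *CARM1* KD 3 and control 2 were again highest, and *CARM1* KD 1 was lowest. Between the groups the log2 fold change was 0.30 ± 0.99 (edgeR, unadjusted p = 0.773, adjusted p = 0.9999), −0.17 without *CARM1* KD 3 and 1.17 without control 2.

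*MTOR*, the kinase shared by both mTOR complexes (ENSSSCG00000003413, chromosome 6, 71285103 to 71448662, minus strand), had the lowest mean level of the 8. Levels were 0.571, 1.34 and 5.79 FPKM in KD embryos, against 0.787, 0.684 and 0.892 FPKM in control embryos. The controls lay within a narrow range (0.788 ± 0.104 FPKM), and *CARM1* KD 3 was far above all other embryos. *CARM1* KD 1 was the lowest of all 6. The filter on low values, at least 1 FPKM in 2 embryos, was met only through *CARM1* KD 2 and 3. The log2 fold change of 1.38 ± 0.91 (edgeR, unadjusted p = 0.171, adjusted p = 0.9999) was 0.27 without *CARM1* KD 3. The *MTOR* locus overlaps *ANGPTL7* over 7686 bases on the opposite strand, and *ANGPTL7* had 14, 45 and 71 counts in KD embryos and 78, 0 and 0 counts in controls. Strand use in counting was not stated, so reads of these genes cannot be told apart where they overlap.

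*RHEB* encodes the GTPase that activates mTOR complex 1 at the lysosome (ENSSSCG00000016434, chromosome 18, 5779212 to 5822257, plus strand), and it had the highest mean level of the 8. It had 73.8, 48.5 and 39.1 FPKM in KD embryos, against 60.9, 7.25 and 73.7 FPKM in control embryos. Control 2 was lowest, at less than any other embryo by far, and *CARM1* KD 1 and control 3 were nearly equal at the top. The log2 fold change was 0.13 ± 0.92 (edgeR, unadjusted p = 0.890, adjusted p = 0.9999) and −0.38 without control 2. Its close relative *RHEBL1* had 57.7, 22.8 and 54.1 FPKM in KD embryos and 43.9, 8.08 and 62.8 FPKM in controls, with control 2 again lowest. The ratio of *RHEB* to *MTOR* FPKM ranged over 129, 36.3 and 6.76 in KD embryos and 77.4, 10.6 and 82.6 in controls, lowest in *CARM1* KD 3 and control 2.

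*FOXO1* encodes a FOXO factor that AKT excludes from the nucleus (ENSSSCG00000009370, chromosome 11, 15320492 to 15410500, minus strand). It had 9.63, 24.1 and 25.8 FPKM in KD embryos, against 10.9, 6.30 and 5.21 FPKM in control embryos. *CARM1* KD 2 and 3 were above every control, and *CARM1* KD 1 lay between control 1 and control 2. The means were 19.9 ± 8.89 FPKM in KD and 7.47 ± 3.02 FPKM in control embryos (SD, n = 3 each). This gave a log2 fold change of 1.31 ± 0.70 (edgeR, unadjusted p = 0.0994, adjusted p = 0.9999), the lowest unadjusted p of the 8, and the exact permutation test gave a two-sided p of 0.2. Leaving out any 1 embryo left it between 0.94 and 1.61, and leaving out *CARM1* KD 3 and control 2 together gave 1.22.

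*FOXO3* encodes the FOXO factor known from mouse follicle dormancy (ENSSSCG00000004387, chromosome 1, 74626672 to 74760325, plus strand). Levels were 0.185, 2.16 and 4.39 FPKM in KD embryos, against 1.58, 3.56 and 0.250 FPKM in control embryos. *CARM1* KD 3 and control 2 were highest, and *CARM1* KD 1 and control 3 were lowest, so each group spanned most of the range. The log2 fold change was 0.07 ± 1.26 (edgeR, unadjusted p = 0.957, adjusted p = 0.9999). It was −0.17 with DESeq2, −0.68 without *CARM1* KD 3 and 1.12 without control 2. *FOXO1* FPKM exceeded *FOXO3* FPKM in every embryo, 52.1, 11.2 and 5.88 times in KD embryos and 6.89, 1.77 and 20.8 times in controls.

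**Figure D1:**
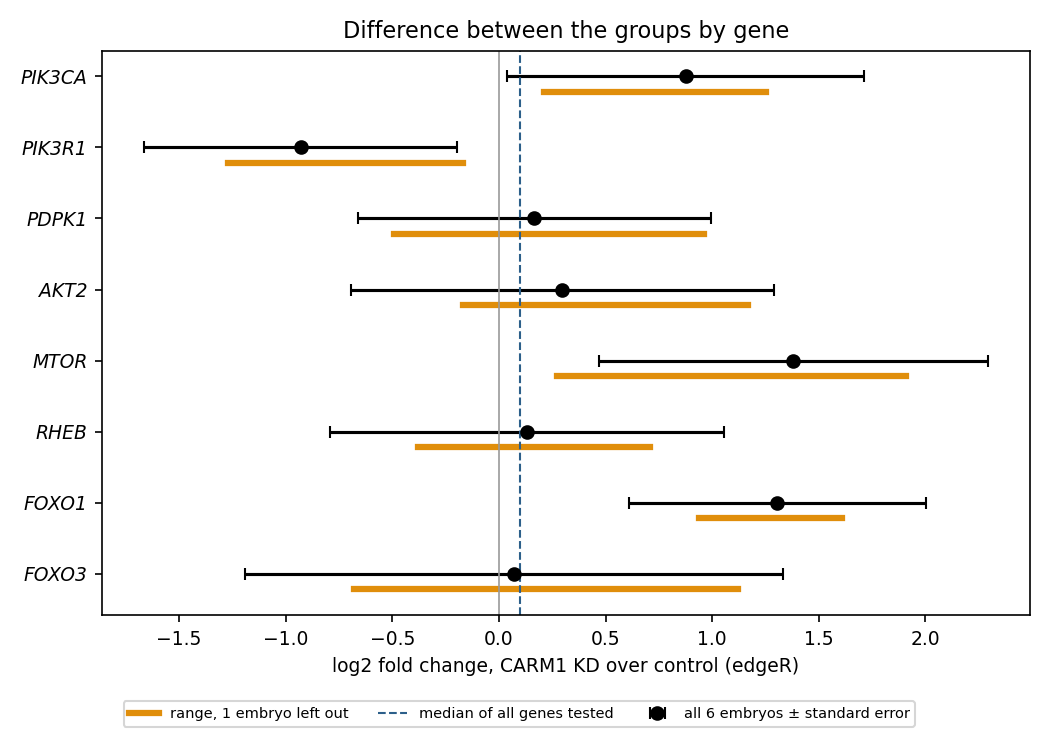
Log2 fold change, *CARM1* KD over control, of each gene from edgeR with all 6 embryos (points, with standard errors) and the range when 1 embryo at a time was left out (bars under the points); the dashed line is the median of all genes tested. *FOXO1*, *MTOR* and *PIK3CA* stayed above 0 and *PIK3R1* stayed below 0 when any 1 embryo was left out, while *PDPK1*, *AKT2*, *RHEB* and *FOXO3* crossed 0. *MTOR* met the filter on low values only through *CARM1* KD 2 and 3, in the group where it is high.

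The 8 genes spanned a wide range of levels. Averaged over all 6 embryos, *RHEB* led with 50.5 ± 25.3 FPKM (SD), followed by *FOXO1* with 13.7 ± 9.01, *PIK3R1* with 8.93 ± 5.68 and *PDPK1* with 5.24 ± 3.66 FPKM. *FOXO3* (2.02 ± 1.72), *AKT2* (1.995 ± 1.42), *PIK3CA* (1.89 ± 1.29) and *MTOR* (1.68 ± 2.03 FPKM) came last. Among the other 7 genes, neighbours in this order had means closer than the larger SD of the pair. That SD is between embryos and does not measure differences between genes within an embryo, which were not tested. *PDPK1*, for example, was above *FOXO3* in every embryo. *RHEB* ranked at the 89.6th percentile of mean FPKM among genes tested and *MTOR* at the 22.1st. Between embryos, the highest level exceeded the lowest by 4.96 times for *FOXO1* and up to 10.2 times for *RHEB* and 23.8 times for *FOXO3*. Over the 7804 tested genes with a count in every embryo, the median of that ratio was 8.0 (interquartile range 4.18 to 21.1). Spread between embryos of this size was thus common among all genes.

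Much of the spread ran across the groups. *CARM1* KD 3 and control 2 were the highest 2 embryos for 4 of the 8 genes, *PIK3R1*, *PDPK1*, *AKT2* and *FOXO3*, a pattern that 24.1% of all genes tested had. They were the lowest 2 for *RHEB*, as for 20.3% of all genes. *FOXO1* and *MTOR* were high in *CARM1* KD 3 but not in control 2, which had 6.30 FPKM of *FOXO1* and 0.684 FPKM of *MTOR*. The oocyte transcripts moved with the first 4 genes, since their summed level was highest in the same embryos, and their part in these levels was not tested. Without *CARM1* KD 3 and control 2, the log2 fold changes were 1.16 for *PIK3CA*, −0.26 for *PIK3R1*, 0.49 for *PDPK1*, 0.89 for *AKT2* and 0.29 for *MTOR*. Those of *RHEB*, *FOXO1* and *FOXO3* were −0.08, 1.22 and 0.58, and the lowest unadjusted p of the 8 was 0.141 (edgeR). *FOXO1* was thus nearly as far apart without these embryos. The *MTOR* difference rested on *CARM1* KD 3, being 0.27 without that embryo alone and 1.3 without control 2 alone. Cumulus and granulosa cells left little trace, with summed FPKM of 0.117 to 1.42 per embryo over 7 matched genes and *FSHR*, *AMH*, *INHA* and *FOXL2* at 0 in all 6.

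**Figure D2:**
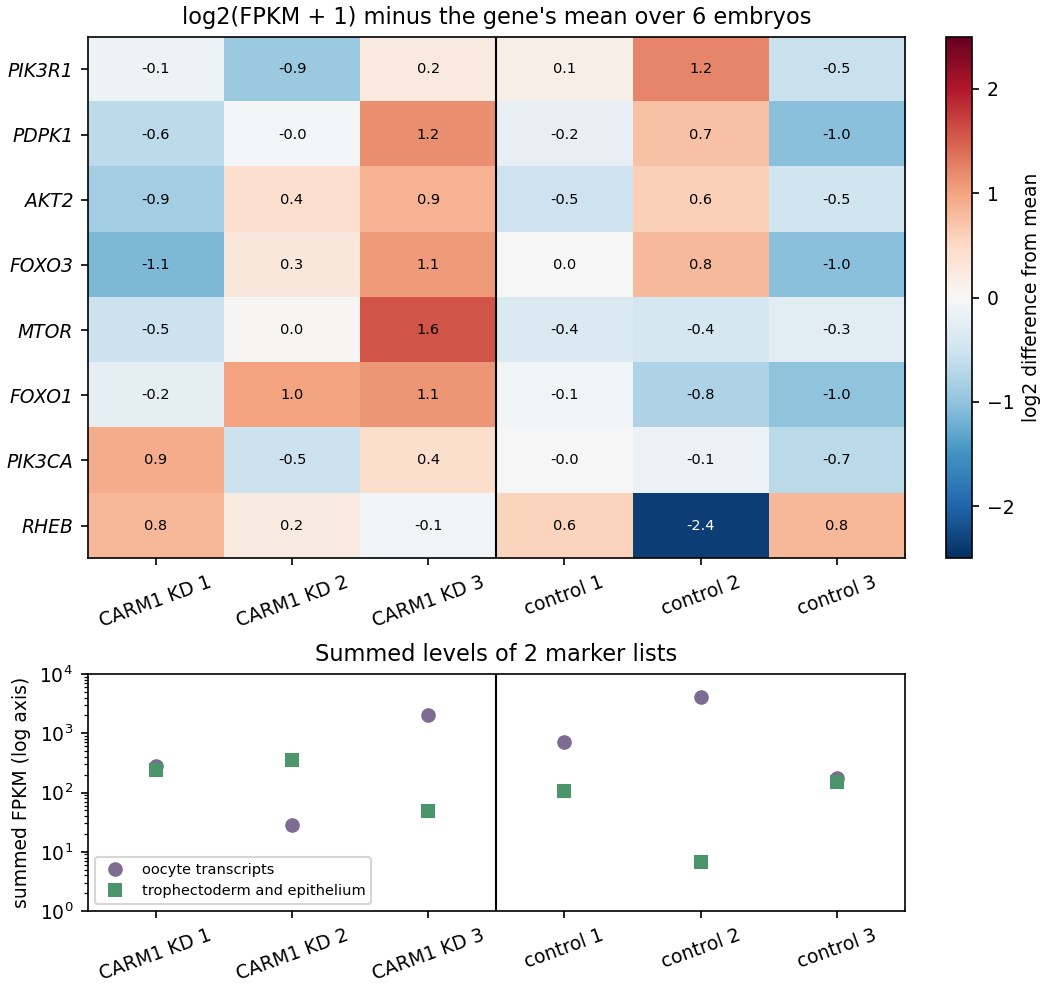
Top, log2(FPKM + 1) of each gene minus its mean over the 6 embryos, as printed in each cell, with *CARM1* KD embryos left of the line and control embryos right; bottom, summed FPKM on a log axis of oocyte transcripts (circles) and of trophectoderm and epithelial genes (squares) in the same embryos. *PIK3R1*, *PDPK1*, *AKT2* and *FOXO3* were highest in *CARM1* KD 3 and control 2, the embryos with 2028 and 4073 FPKM of oocyte transcripts, and *RHEB* was lowest in them.

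For the gene of highest mean level in each layer, the tested genes with the most similar profile over the 6 embryos were sought among 5193 genes of at least 5 FPKM on average. Likeness was the root mean square difference of centred log2(FPKM + 1). *PIK3R1* was nearest to *PCNA*, the sliding clamp of DNA replication (0.143), and to *ALDH18A1*, a proline synthesis enzyme (0.165), where the median candidate was at 1.23. *PCNA* had 481, 296 and 528 FPKM in KD embryos and 612, 1051 and 382 FPKM in controls. *RHEB* was nearest to *TYW3* (0.106) and *MBIP* (0.134), with a median of 1.08. *FOXO1* had no neighbour as close, its nearest being *DCTPP1*, a nucleotide pyrophosphatase (0.273), and *SMARCA4*, an ATPase of chromatin remodeling (0.277), with a median of 1.19. *SMARCA4* had 4.64, 10.02 and 14.4 FPKM in KD embryos and 5.26, 2.12 and 3.74 FPKM in controls. It too was higher in *CARM1* KD 2 and 3 than in any control, but it was picked for its likeness to *FOXO1* over these embryos. The shared pattern is therefore not a separate result.

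The transcript table divides each gene's count among annotated transcripts. These share most exons, so the division is an estimate, and it was given no test. For *PIK3CA*, a transcript of 8591 nt (ENSSSCT00000029004) took 1.56, 0 and 0% of the count in *CARM1* KD embryos 1 to 3, against 74.4, 74.2 and 0% in control embryos 1 to 3. A shorter one of 4108 nt with as many exons (ENSSSCT00000039550) took the remainder. Control 3 was thus like the KD embryos, at a depth of 180 counts. Summed over transcripts, *PIK3CA* reached 9.33, 1.92 and 6.01 FPKM in KD embryos and 2.32, 2.01 and 1.58 FPKM in controls, since each count was divided by a shorter length. *CARM1* KD 2 still lay below controls 1 and 2.

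For *FOXO1*, the transcript of 2308 nt and 3 exons (ENSSSCT00000035744) took 80.8, 87 and 83.1% in KD embryos and 58.7, 38.2 and 100% in controls, and one of 2473 nt and 2 exons took the remainder. KD embryos varied little, and controls lay on both sides of them. For *AKT2*, a transcript of 5771 nt and 12 exons (ENSSSCT00000062620) took 79.2% in *CARM1* KD 2, but 1.30 and 0.936% in *CARM1* KD 1 and 3 and 19.6, 0 and 26.4% in controls. The 3396 nt, 15-exon transcript (ENSSSCT00000036184) held the rest of the *AKT2* count.

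*PIK3R1* counts fell mainly on the 6900 nt transcript with 16 exons (ENSSSCT00000030461), with 95.7, 97.5 and 100% in KD embryos and 100, 100 and 63.2% in controls. In control 3, 418 counts went to a 7061 nt transcript (ENSSSCT00000042717) that begins farther into the gene. A 10-exon transcript that starts at 46513292 within the gene (ENSSSCT00000018467) had 95, 29 and 0 counts in KD embryos and 0 in every control. *FOXO3* counts came from 1 transcript of 7333 nt, and for *RHEB* (1200 nt), *MTOR* (10844 nt) and *PDPK1* (7351 nt) 1 transcript held at least 84.0%, 85.6% and 97.5% in every embryo. Summing transcripts put *RHEB* at 3.67 to 3.79 times its gene-level FPKM in every embryo, and *CARM1* KD 1 and control 3 stayed nearly equal at the top.

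**Figure D3:**
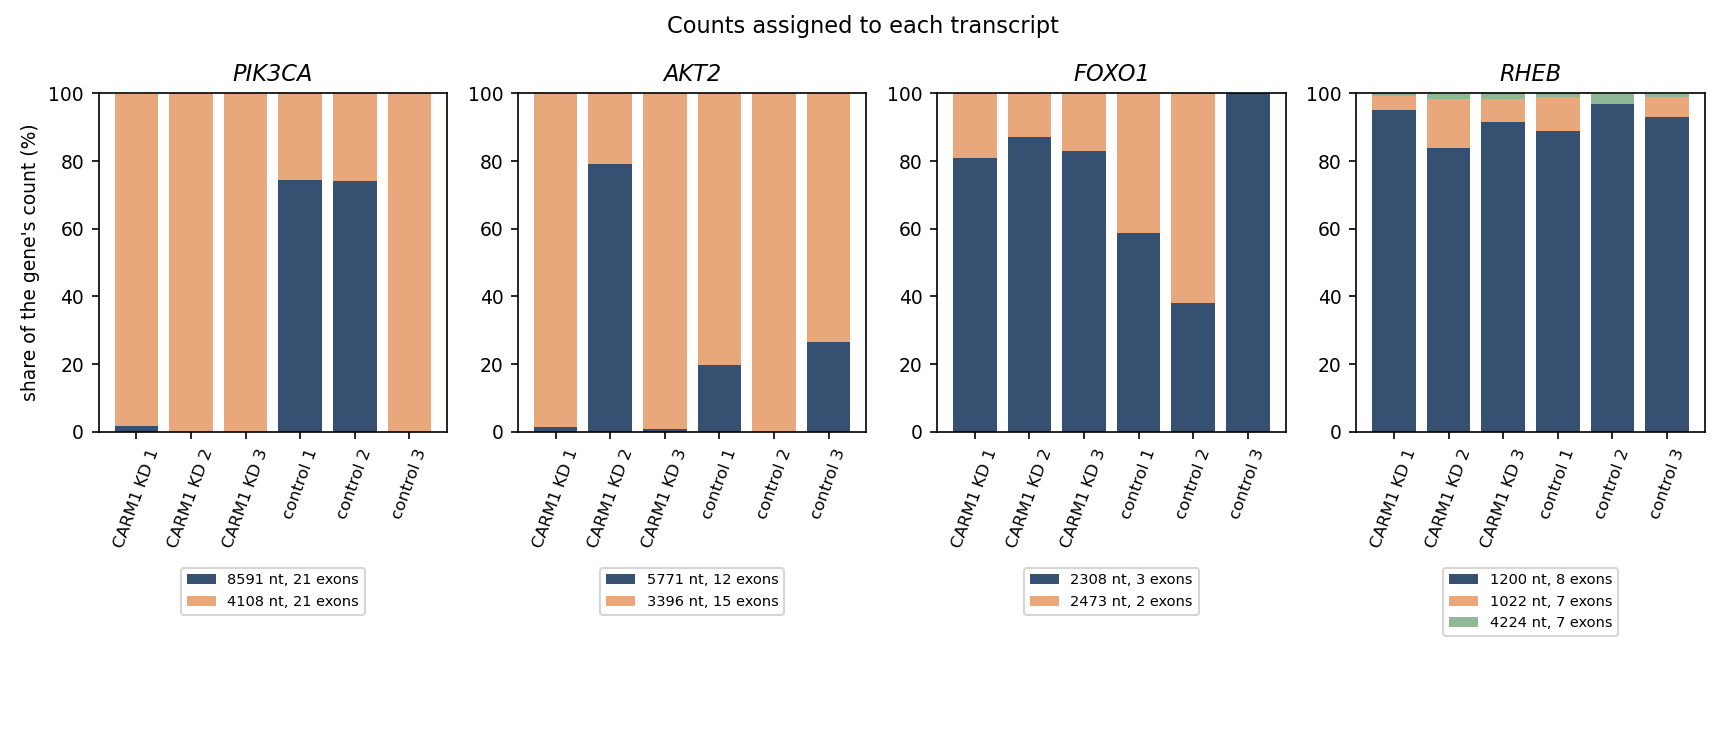
Share of the gene's estimated count (%, stacked to 100) assigned to each annotated transcript, named by length and exon number, in *CARM1* KD embryos (left) and control embryos (right). The 8591 nt *PIK3CA* transcript had 74.4 and 74.2% in controls 1 and 2 and at most 1.56% elsewhere, and the 5771 nt *AKT2* transcript had 79.2% in *CARM1* KD 2.

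The surrounding pathway was described with 11 lists of genes by role, holding 105 genes, of which 100 matched and 74 passed the filter. With the 8 genes included, 49 were fitted higher and 25 lower in KD embryos, with a median log2 fold change of 0.24 beside 0.10 over all genes. This direction turned when the summed Y-linked level was a term in the fit, with 35 higher, 39 lower and a median of −0.09, beside −0.12 over all genes. That level was 178 and 215 FPKM in *CARM1* KD 1 and 2 and at most 28.1 FPKM in the other embryos. The term is thus partly confounded with the treatment, and values fitted with it cannot tell the 2 apart. None passed an adjusted p under 0.05 by edgeR or DESeq2, and none an unadjusted p under 0.05 by edgeR. In 7 of 74 (9.46%) every KD embryo was above every control, against 3.82% of all genes, and in 0 every KD embryo was below, against 1.07%. These were *GRB2*, *RPTOR*, *LAMTOR1*, *FLCN*, *STK11*, *SESN1* and *ATG13*. Except for *GRB2* and *SESN1* they were singled out after their values were seen. Without *CARM1* KD 3 and control 2, the groups separated in either direction for 33.8% of the 74 genes, against 26.6% of all genes, and for 0 of the 8. List medians that lay near 0 depended on single embryos: those of the PI3K, AKT, TSC and Rag, and effector lists turned below 0 when 1 embryo or another was left out.

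Upstream, 4 of 9 PI3K subunit genes were tested, with 2 fitted higher and 2 lower (median 0.18, and −0.04 with upper-quartile scaling). Beside *PIK3CA* and *PIK3R1* these were *PIK3CB*, another catalytic subunit, and *PIK3R3*, another regulatory one. *PIK3R3* had 3.17, 3.34 and 33.6 FPKM in KD embryos and 7.62, 30.0 and 3.34 FPKM in controls, so it was high in *CARM1* KD 3 and control 2. *PIK3CB* had 4.07, 3.78 and 2.28 FPKM in KD embryos and 1.87, 0.2999 and 3.39 FPKM in controls. Among insulin and IGF receptors and adaptors, 4 were higher and 2 lower (median 0.82). *GAB1*, a docking protein that recruits PI3K, had 14.01, 3.73 and 67.1 FPKM in KD embryos and 32.4, 162 and 8.54 FPKM in controls, again highest in control 2 and *CARM1* KD 3. *GRB2*, an adaptor of receptor tyrosine kinases, had 4.91, 6.73 and 10.9 FPKM in KD embryos and 3.60, 0 and 4.57 FPKM in controls. The tested phosphoinositide phosphatases, *INPP4A* and *INPP5K*, were both fitted higher, and their groups overlapped.

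Around AKT, 4 genes were higher and 3 lower (median 0.14), a median that was −0.05 with DESeq2. *SGK1*, a kinase related to AKT, had 6.00, 17.5 and 4.99 FPKM in KD embryos and 5.32, 4.34 and 13.4 FPKM in controls. Of the tested AKT substrates other than FOXO, all 6 were fitted higher (median 0.69). *BAD*, which promotes cell death unless AKT phosphorylates it, had 161, 319 and 231 FPKM in KD embryos and 163, 0 and 269 FPKM in controls. *MDM2*, the ubiquitin ligase of p53, had 22.5, 19.99 and 2.17 FPKM in KD embryos and 20.2, 1.35 and 9.18 FPKM in controls. Both were lowest in control 2, and the groups overlapped for both.

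Among mTOR complex subunits, 5 were higher and 2 lower (median 0.62). *RPTOR*, the defining subunit of mTOR complex 1, had 1.45, 1.98 and 1.74 FPKM in KD embryos and 1.20, 0.719 and 1.31 FPKM in controls. *RICTOR*, that of mTOR complex 2, had 6.53, 3.84 and 13.5 FPKM in KD embryos and 5.75, 32.8 and 2.60 FPKM in controls. *RPTOR* separated the groups by a narrow gap and *RICTOR* did not. *MAPKAP1*, another subunit of complex 2, had 7.74, 11.2 and 13.2 FPKM in KD embryos and 12.1, 12.8 and 5.16 FPKM in controls.

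In the TSC, RHEB and Rag list, 9 genes were higher and 4 lower (median 0.08). With the Y-linked term 4 were higher and 9 lower (median −0.37, beside −0.12 over all genes). *LAMTOR5*, of the lysosomal Ragulator complex, had 222, 124 and 83.6 FPKM in KD embryos and 168, 38.9 and 189 FPKM in controls. *RRAGA*, a Rag GTPase, ran the other way, with 37.3, 34.7 and 274 FPKM in KD embryos and 77.3, 222 and 42.8 FPKM in controls. *FLCN*, a regulator of Rag GTPases, had 40.7, 57.4 and 47.6 FPKM in KD embryos and 33.9, 36.9 and 36.9 FPKM in controls, so the embryos of each group lay close together.

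Of the energy and stress inputs to mTOR complex 1, 7 were higher and 1 lower (median 0.77). With the Y-linked term 4 were higher and 4 lower (median −0.12, as over all genes). *STK11*, the kinase LKB1 that activates AMPK, had 2.01, 5.41 and 13.4 FPKM in KD embryos and 0.704, 1.47 and 1.06 FPKM in controls. Every KD embryo was above every control, and the edgeR unadjusted p was 0.0699, with an adjusted p of 0.9999. *SESN1*, a leucine sensor and inhibitor of mTOR complex 1, had 6.45, 13.2 and 9.59 FPKM in KD embryos and 2.55, 5.29 and 6.25 FPKM in controls. *CASTOR1*, an arginine sensor, had 1.996, 1.59 and 36.4 FPKM in KD embryos and 7.58, 19.6 and 3.36 FPKM in controls, highest in *CARM1* KD 3 and control 2.

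Downstream of mTOR complex 1, 6 effectors were higher and 3 lower (median 0.24). With the Y-linked term 2 were higher and 7 lower (median −0.66, beside −0.12 over all genes). *RPS6*, the ribosomal protein S6, had 631, 554 and 391 FPKM in KD embryos and 692, 55.7 and 717 FPKM in controls. *EIF4EBP1*, the inhibitor of cap-dependent translation that mTOR inactivates, had 44.6, 85.5 and 61.8 FPKM in KD embryos and 82.7, 10.4 and 95.5 FPKM in controls. Both were lowest in control 2, as was *RHEB*. *ATG13*, an autophagy initiation factor, had 7.59, 10.7 and 6.09 FPKM in KD embryos and 3.37, 0 and 4.78 FPKM in controls.

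The other FOXO factors were scarcely detected, *FOXO4* at or under 0.391 FPKM and *FOXO6* at 0 in all 6 embryos. Among 22 genes listed as FOXO targets, 13 were tested, with 5 fitted higher and 8 lower (median −0.40). This median was 0.17 without *CARM1* KD 3, and 0.26 without *CARM1* KD 3 and control 2. *CDKN1A*, the cell cycle inhibitor p21, had 41.8, 91.5 and 20.8 FPKM in KD embryos and 16.5, 26.6 and 55.4 FPKM in controls. *GADD45A*, a DNA damage response gene, had 18.6, 12.02 and 2.28 FPKM in KD embryos and 10.1, 27.5 and 15.4 FPKM in controls. For both, the groups overlapped.

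**Figure D4:**
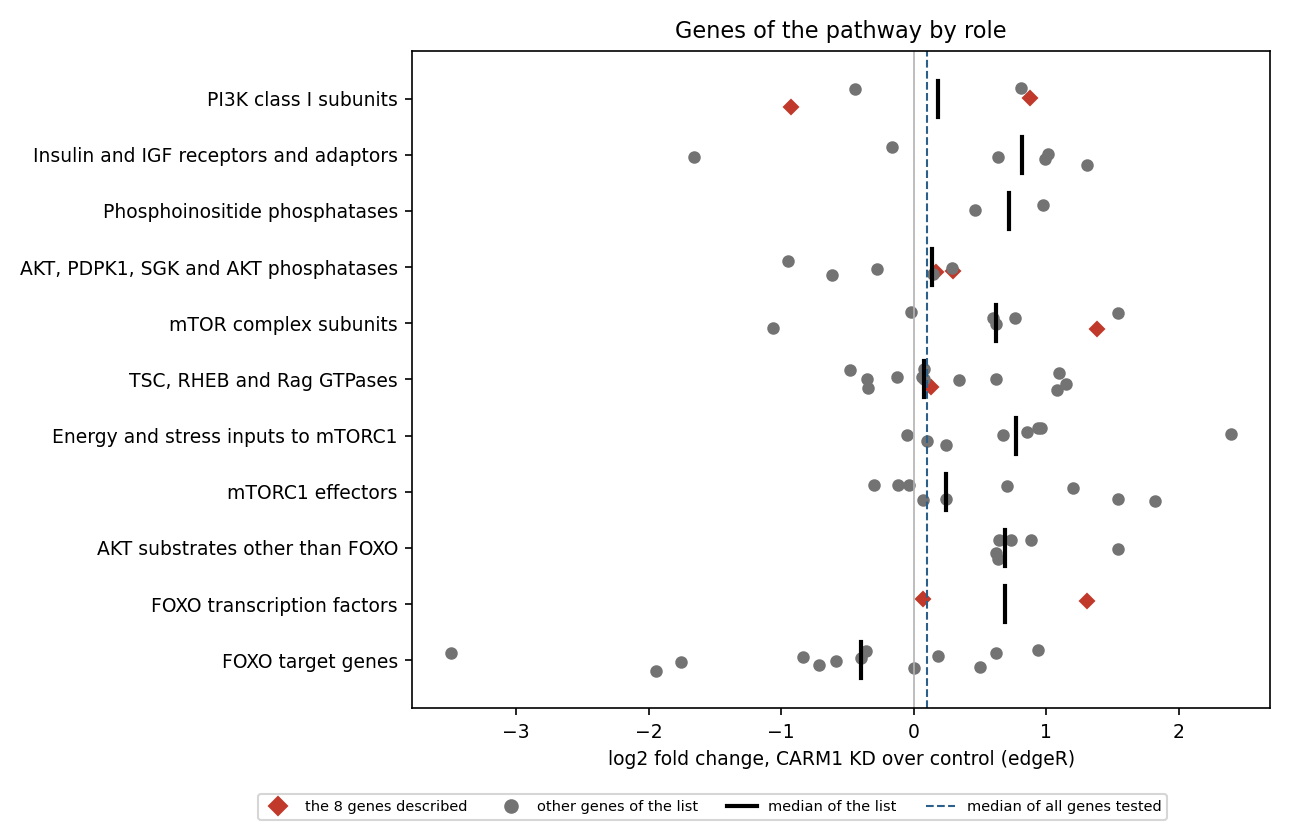
Log2 fold change, *CARM1* KD over control, from edgeR for each tested gene of the 11 lists (circles, with the 8 genes described as diamonds), with the list median (black bar) and the median of all genes tested (dashed line). List medians ran between −0.40 for FOXO targets and 0.82 for insulin and IGF receptors and adaptors, and no gene passed an adjusted p under 0.05.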

How the data were processed

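The authors deposited a gene table and a transcript table, each with an FPKM value and an estimated count per embryo, and 0 of their value columns belonged to no sample. The submitters' processing notes name fastp, HISAT2, StringTie and edgeR, besides HOMER and ChIPseeker, and the build field reads GRCh38.p10, whereas the gene identifiers and coordinates are those of pig. The study's methods name Cufflinks and the pig genome. No comparison columns of the authors were in the tables. The deposited estimated counts were rounded, and genes of at least 1 FPKM in at least 2 of 6 embryos were kept (10639 of 24358). The deposited FPKM of genes with no count is a small constant, given here as 0, and each gene's FPKM is computed on 1 length, which need not be that of the transcript counted.

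Counts were tested with edgeR 4.0.16 (quasi-likelihood, TMM scaling, 4 residual degrees of freedom) in R 4.3.3, with Benjamini-Hochberg adjustment over all genes tested. Standard errors are the log2 fold change over the square root of F. The steps were tested on simulated data. Single genes were compared with a two-sided exact permutation test of the difference in mean log2(FPKM + 1) between groups (numpy 2.4.6). Alternatives were DESeq2 1.42.0, limma 3.58.1 on log2(FPKM + 1) and log2(FPKM + 0.1), other scalings and filters, a block for replicate number, the Y-linked level as a term, the sum over transcripts and each embryo left out. Nothing in the sources used here says that embryos of a group came from separate donors or collections, so p-values measure only the spread between these embryos.

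The members and the gene lists were chosen with earlier results of these data known. From each list up to 2 further genes of highest mean FPKM, and any at an unadjusted p under 0.05, were named, apart from a gene that is not reported here. List medians only describe the lists, which were not tested as sets. Some lists share genes, such as *AKT1S1* and *TSC2*.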

Additional observations from a re-analysis of the deposited data

How the results depend on the processing

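The count of all genes called was 12 with DESeq2 and 0 under every other alternative run, and the counts for the 8 genes and the pathway genes were 0 throughout. For *PDPK1* the log2 fold change turned to −0.05 with DESeq2 and with median-ratio scaling, −0.12 with upper-quartile scaling and −0.06 with a mean FPKM of at least 5. For *FOXO3* it turned to −0.17 with DESeq2 and with median-ratio scaling and −0.24 with upper-quartile scaling. *RHEB* turned to −1.04 with a term for Y-linked transcripts and to −0.08 without control 2 and *CARM1* KD 3. The Y-linked term also moved *PDPK1* to 1.23, *AKT2* to 1.32, *FOXO3* to 1.15, *MTOR* to 2.49 (edgeR unadjusted p = 0.0563) and *PIK3R1* to −0.26, and left *FOXO1* at 1.11. With this term 3 of the 74 pathway genes and 221 of all 10639 genes tested had an edgeR unadjusted p under 0.05. The cause was not tested. With each embryo left out in turn, the values ran from 0.21 to 1.25 for *PIK3CA*, −1.27 to −0.17 for *PIK3R1*, −0.49 to 0.96 for *PDPK1*, −0.17 to 1.17 for *AKT2*, 0.27 to 1.91 for *MTOR*, −0.38 to 0.71 for *RHEB*, 0.94 to 1.61 for *FOXO1*, −0.68 to 1.12 for *FOXO3* and −4.30 to −3.25 for *CARM1*. The median of all genes was −0.02 with upper-quartile scaling, a shift of −0.13 from the 0.10 with TMM, and −0.12 with the Y-linked term. Embryos with the same replicate number had deviations from their group means correlated at 0.177, −0.475 and −0.504 over genes. *CARM1* KD 3 and control 2, of unlike number, were at 0.543. Such values cannot tell whether embryos of the same number shared a collection, since a smaller shared part could be hidden. With the replicate block *FOXO3* was −0.26, the count at an unadjusted p under 0.05 was 16 genes in place of 73, and no call changed. A mean FPKM of at least 5 leaves out *PIK3CA*, *AKT2*, *MTOR* and *FOXO3*, which then had no value. Summing transcripts moved 12 of 48 embryo levels by more than 1 SD. With 3 embryos in each group, the standard error was 0.70 to 1.26 for these genes. Differences several times the standard error could also go uncalled. That of *CARM1* was −3.98 ± 1.02, with an adjusted p of 0.9999 in edgeR.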

Other observations

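The gene table carries KEGG pathway names, which give a broader view than the lists by role. Of 142 genes annotated to mTOR signaling, 102 were tested, 57 fitted higher and 45 lower in *CARM1* KD embryos, with a median log2 fold change of 0.07. In 6 of them every KD embryo was above every control and in 2 below, together 7.84%, against 4.89% of all genes. Those above included *SOS1*, a RAS exchange factor, and those below were *FZD4* and *FZD2*, receptors for WNT. Of 122 genes annotated to FoxO signaling, 84 were tested, 47 fitted higher and 37 lower (median 0.17). *CCND2* among these, which encodes the G1 cyclin D2, was at an unadjusted p of 0.00948 with an adjusted p of 0.9999 in edgeR, and DESeq2 called it. It had 0.0594, 0.0713 and 0 FPKM in KD embryos and 0.3001, 4.37 and 16.4 FPKM in controls, so it met the filter on low values only through controls 2 and 3, in the group where it is high, and its call is not support for a difference. These annotations overlap with the lists by role and rest on the same 6 embryos.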
